A study of Homo sapiens with 14 samples.

Results

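Expression of 40 genes of the unfolded protein response and of protein folding in the endoplasmic reticulum (ER) was examined in RNA sequencing libraries of human pancreatic differentiation. The 40 genes were taken as a list of symbols and found by their Ensembl identifiers among the 60624 identifiers that each library lists. By role they comprised 11 chaperones and cofactors, 6 enzymes of disulfide bonds, 5 stress sensors and their transcription factors, 7 genes of the ATF4 branch, 8 genes of ER-associated degradation (ERAD) and 3 genes of protein entry and of the ER membrane. The measured quantity was TPM, in which each gene has its share of the transcripts of a library after its length is allowed for.

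All 14 libraries came from MEL1, a human embryonic stem cell line, which the methods of the study give as MEL1 INS GFP/W, with a GFP reporter at the insulin gene INS. They formed 9 groups in 3 labelled batches. Batch 1 held 1 library each of undifferentiated cells (hPSC), definitive endoderm (DE), pancreatic progenitors (PP2) and β-like cells of the direct route, without expansion (SC-β). Batch 2 held 2 libraries each of expandable pancreatic progenitors (ePPs) at passage 9 (ePP-P9) and passage 21 (ePP-P21) and of β-like cells made from ePPs (ePP-β). Batch 3 held 2 libraries each of pancreatic progenitors that received either DMSO, the solvent, or 1 μM I-BET151 during 7 days. I-BET151 blocks the BET bromodomain proteins, which read acetylated histones. The ePPs were grown on feeder cells with the growth factors EGF and bFGF, the TGFβ receptor inhibitor 616452 and I-BET151 at the same 1 μM, so the ePP groups carried the BET inhibitor too. The listed media of β cell differentiation do not name it, and the change of cell type and the change of medium cannot be told apart. The passage from which the ePP-β libraries started is not given in the labels. No label says that the replicates of a group were separate cultures, and p-values measure the spread between these libraries only.

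Proteins that are to be secreted enter the ER through the SEC61 channel, lose their signal peptide, and are folded by chaperones such as BiP (HSPA5) while disulfide bonds are put in by the protein disulfide isomerases and their oxidases. When folding falls behind, 3 sensors in the ER membrane respond. IRE1 (ERN1) splices the mRNA of XBP1 into one that encodes an active transcription factor, ATF6 is cut to release a transcription factor, and PERK (EIF2AK3) slows translation by phosphorylating eIF2α, which favours the translation of ATF4. Pancreatic β cells make large amounts of proinsulin, a protein with disulfide bonds, and depend on PERK, IRE1 and the ER membrane protein WFS1 for their function. Expression at the level of genes, as measured here, does not resolve the spliced form of XBP1, the cleavage of ATF6 or the phosphorylation of eIF2α.

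The promoters of several of these genes carry known stress elements, and 7 are printed. Some of these genes differ in direction below while sharing an element, and others share both an element and a direction. In the 250 bases before each RefSeq start (GRCh38.p14), 4 motifs were searched on both strands: the ER stress element ERSE (CCAAT and CCACG with 9 bases between them), ERSE-II (ATTGG and CCACG with 1 base between them), the unfolded protein response element UPRE (TGACGTGG) and the C/EBP-ATF response element CARE, which ATF4 binds (TGATGNAA). Capitals mark the matches. The windows are HSPA5 (chr9:125241344-125241593, reverse strand), ERO1B (chr1:236281959-236282208, reverse strand), XBP1 (chr22:28800570-28800819, reverse strand), HYOU1 (chr11:119057206-119057455, reverse strand), HERPUD1 (chr16:56931892-56932141, forward strand), CHAC1 (chr15:40953221-40953470, forward strand) and ASNS (chr7:97872409-97872658, reverse strand), each written 5′ to 3′ on the strand of its gene. The CHAC1 window and parts of the ASNS, ERO1B, HSPA5, XBP1 and HYOU1 windows lie within the longer gene spans of the GENCODE annotation.
HSPA5: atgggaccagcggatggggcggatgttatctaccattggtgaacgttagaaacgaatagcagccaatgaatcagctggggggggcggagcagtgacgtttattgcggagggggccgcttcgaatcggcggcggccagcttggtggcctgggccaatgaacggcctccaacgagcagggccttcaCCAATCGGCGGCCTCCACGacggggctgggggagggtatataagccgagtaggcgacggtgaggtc
ERO1B: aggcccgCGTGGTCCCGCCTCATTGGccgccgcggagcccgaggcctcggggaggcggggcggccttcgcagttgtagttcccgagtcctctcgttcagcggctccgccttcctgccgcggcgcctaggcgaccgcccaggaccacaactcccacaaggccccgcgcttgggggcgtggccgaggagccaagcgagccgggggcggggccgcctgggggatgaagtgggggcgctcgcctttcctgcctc
XBP1: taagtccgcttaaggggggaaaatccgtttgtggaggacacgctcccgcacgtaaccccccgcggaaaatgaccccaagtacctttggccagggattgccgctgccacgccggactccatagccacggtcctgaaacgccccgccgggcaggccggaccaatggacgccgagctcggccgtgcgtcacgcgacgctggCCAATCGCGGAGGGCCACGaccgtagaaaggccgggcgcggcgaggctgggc
HYOU1: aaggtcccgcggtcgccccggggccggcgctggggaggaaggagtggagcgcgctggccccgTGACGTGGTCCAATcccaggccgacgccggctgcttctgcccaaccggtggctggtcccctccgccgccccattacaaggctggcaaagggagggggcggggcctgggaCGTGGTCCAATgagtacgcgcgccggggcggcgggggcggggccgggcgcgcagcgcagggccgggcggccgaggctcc
HERPUD1: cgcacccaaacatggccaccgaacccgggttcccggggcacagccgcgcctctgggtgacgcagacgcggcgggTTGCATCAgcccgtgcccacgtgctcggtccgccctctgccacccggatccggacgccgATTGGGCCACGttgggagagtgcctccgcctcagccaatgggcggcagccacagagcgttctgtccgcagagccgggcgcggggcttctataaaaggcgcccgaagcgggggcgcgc
CHAC1: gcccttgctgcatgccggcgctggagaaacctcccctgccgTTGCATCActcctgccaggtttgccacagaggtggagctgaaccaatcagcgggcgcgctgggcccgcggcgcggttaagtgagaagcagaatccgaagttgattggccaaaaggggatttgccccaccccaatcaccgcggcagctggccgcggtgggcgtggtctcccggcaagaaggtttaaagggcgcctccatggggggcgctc
ASNS: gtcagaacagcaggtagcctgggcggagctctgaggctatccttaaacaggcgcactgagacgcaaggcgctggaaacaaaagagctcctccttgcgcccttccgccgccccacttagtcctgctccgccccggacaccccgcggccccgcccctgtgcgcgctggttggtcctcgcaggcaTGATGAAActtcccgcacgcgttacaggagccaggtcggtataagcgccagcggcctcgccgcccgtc

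A window was present for 37 of the 40 genes, and PDIA3, DERL1 and DERL3 had none. ERSE was found in 8 of the 37 (21.6%), against 0.0916% of the 27305 genes with a window. They were HSPA5, HSP90B1, CALR, CANX, CRELD2, PDIA6, ERO1B and XBP1. ERSE-II was found in HYOU1, SDF2L1 and HERPUD1 (8.11%, against 0.0659% of all genes). UPRE was found in HYOU1 (2.70%, against 0.780%), where it overlaps one of the 2 ERSE-II matches. CARE was found in CHAC1, ASNS and HERPUD1 (8.11%, against 3.89%). A match of letters is not a measurement of binding.

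The libraries were checked before the comparisons. Between 14982 and 17578 genes per library reached 1 TPM, and the number of reads behind the values is unknown. Ribosomal protein genes took from 9.78% of the listed TPM (SC-β) to 27.9% (DMSO replicate 2). Most markers checked followed the labels, with POU5F1 highest in hPSC, SOX17, CER1 and GSC in DE, and PDX1 present in PP2 and all ePP groups. The endoderm marker CXCR4 did not, at 105 TPM in DE and 146.5 and 226 TPM in ePP-β. INS reached 10920 TPM (replicate 1) and 17370 TPM (replicate 2) among the ePP-β libraries, and SC-β had 20660 TPM. The β-like libraries were not dominated by INS alone. The glucagon gene GCG had 74280 TPM in SC-β, which was above INS. For ePP-β, GCG was above INS in replicate 1 (14110 TPM) and below it in replicate 2 (13360 TPM). Genes of other cell types were also present. The summed TPM of 7 mesenchymal markers was 1490 in PP2 and 2678 in SC-β, against 40.04 to 70.9 in the ePP and ePP-β libraries. Bulk libraries cannot tell a lower number of cells of one type from less RNA per cell, and this holds for every comparison below.

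Of the 40 genes, 36 were at 1 TPM or more in all 14 libraries, and the exceptions were ERO1B, TRIB3, CHAC1 and DERL3. Among the chaperones the widest range was that of DNAJB9, 6.88-fold from the lowest to the highest library, and DNAJB11 covered 2.12-fold. The sensors and their transcription factors had ranges of similar size, from 3.71-fold (EIF2AK3) to 5.21-fold (XBP1). Far wider ranges were covered by CHAC1 (625-fold), ERO1B (317-fold), TRIB3 (192-fold), ASNS (40.6-fold) and WFS1 (33.7-fold). The narrowest range was that of SYVN1, the ubiquitin ligase of ERAD, at 1.74-fold. DERL3, an ERAD gene known from secretory tissues, was at most 4.14 TPM and was at most 0.257 TPM in the ePP and ePP-β libraries.

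**Figure D1:**
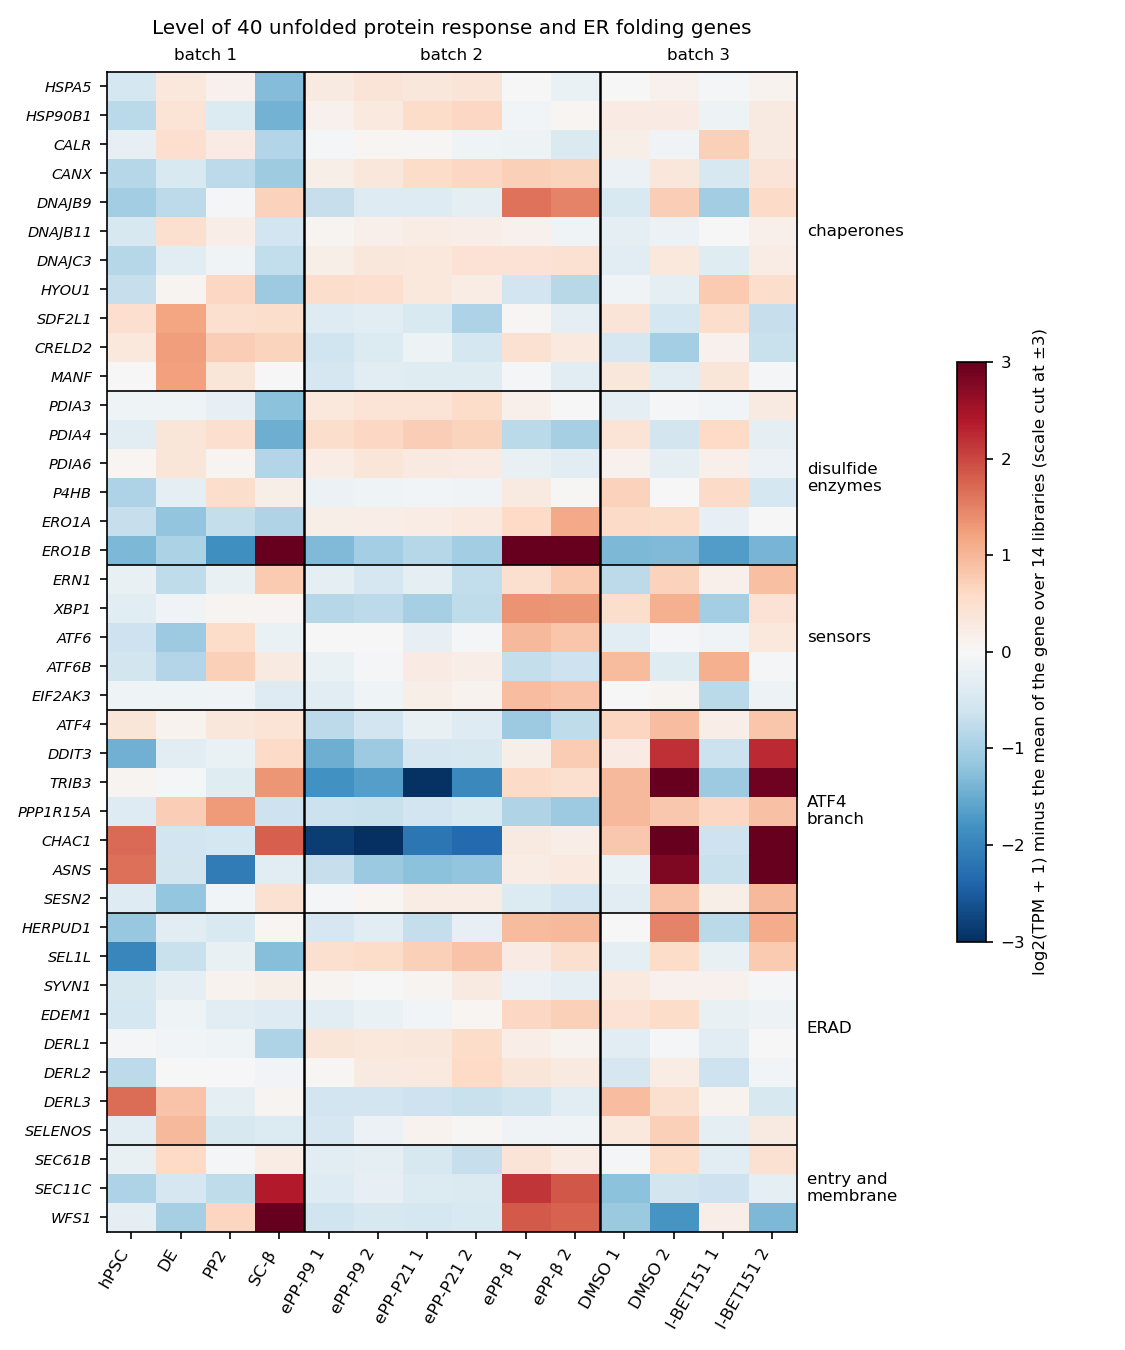
Rows are the 40 genes by role and columns the 14 libraries by batch, and colour gives log2(TPM + 1) minus the mean of the gene over all 14 libraries, cut at 3 units either way. The reddest cells include ERO1B, SEC11C and WFS1 in the β-like cells and TRIB3, CHAC1, ASNS and DDIT3 in both batch 3 libraries numbered 2, while the SC-β column is blue for most chaperones.

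The comparison of ePP-β with ePP asks which of these genes change when expanded progenitors become β-like cells. The genes split. ERO1B, the oxidase of pancreatic ER, rose from 2.27 to 266 TPM, and SEC11C, WFS1, XBP1, DNAJB9, HERPUD1 and 4 genes of the ATF4 branch rose by more than 1 log2 unit. Of the 11 chaperones 3 fell (HYOU1, HSPA5 and HSP90B1) and 3 rose, and of the 6 enzymes of disulfide bonds 3 fell (PDIA4, PDIA6 and PDIA3) and 3 rose. Of the 39 genes tested (DERL3 did not reach 1 TPM in 2 libraries), 19 rose and 12 fell (limma on log2(TPM + 1), Benjamini-Hochberg adjusted p under 0.05), which is 48.7% and 30.8%. Among all 18076 genes tested, 29.2% rose and 28.2% fell, so the share that fell was close to the background. With a log2 fold change beyond 1 required as well, 11 rose and 2 fell, against 17.9% and 9.86% of all genes. The median log2 fold change was 0.27 for the 39 genes and -0.03 for all genes. Centring each library on its median moved the latter to -0.17. Of the 39 genes 17 then rose and 14 fell, against 4658 and 6410 of all 18076 genes. At an unadjusted p under 0.05 there were 34 of 39 genes, against 62.2% of all genes. In 21 higher and 13 lower genes the 2 ePP-β libraries lay outside the range of the 4 ePP libraries, against 32.2% and 31.6% of all genes.

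**Figure D2:**
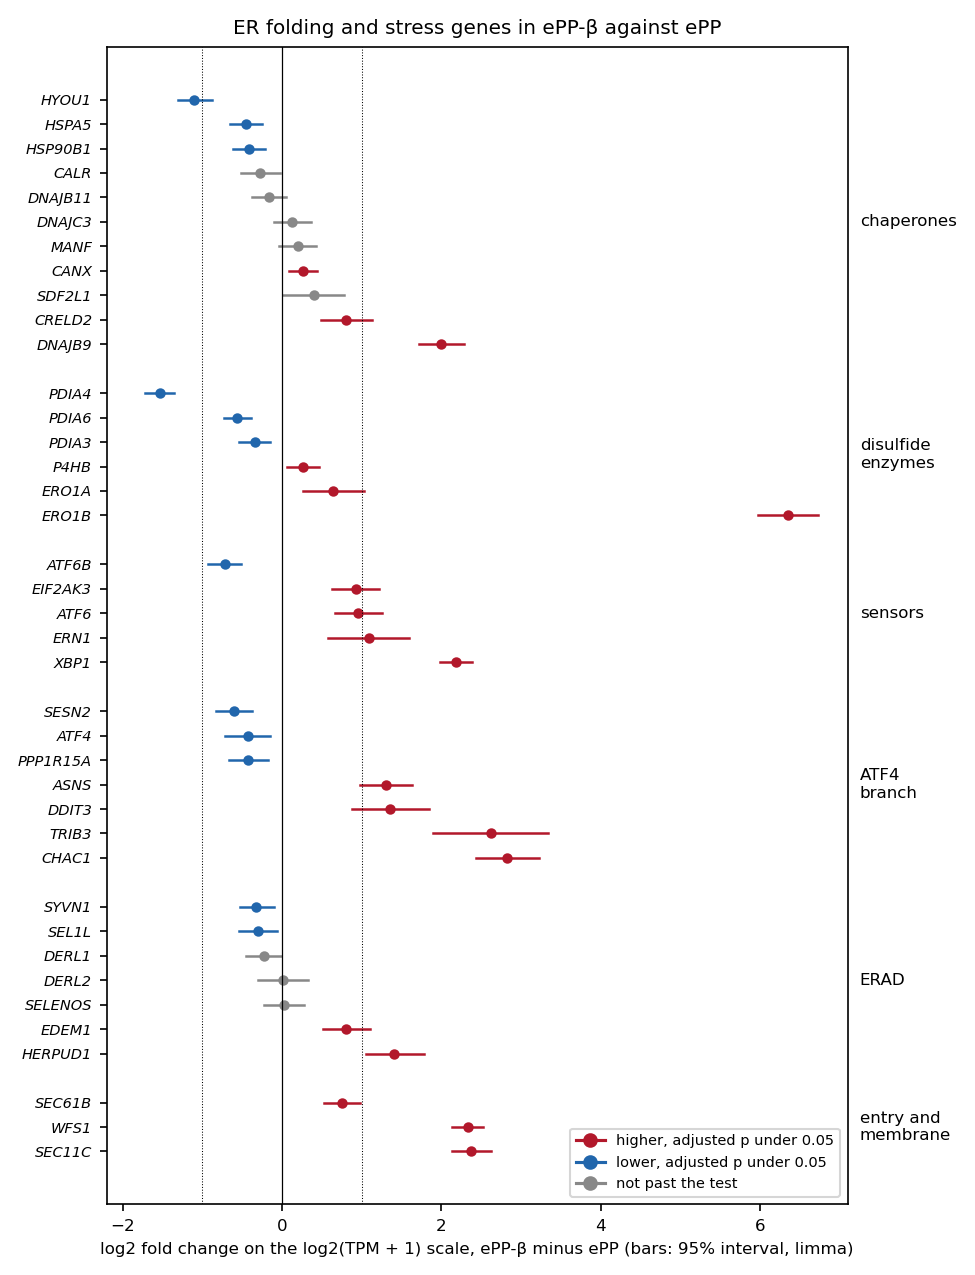
Points are log2 fold changes of ePP-β over ePP for the 39 genes tested, by role, and bars are 95% intervals from limma. Red marks genes that were higher and blue genes that were lower at an adjusted p under 0.05, grey the others, and dotted lines mark 1 log2 unit. ERO1B stands at 6.35, PDIA4 at -1.53, and all 3 genes of protein entry and of the ER membrane are red.

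Among the 11 chaperones and cofactors 3 rose, 3 fell and 5 did not pass the test. DNAJB9, a cochaperone of BiP that restrains IRE1, rose most. It was at 17.1, 21.2, 21.1 and 23.1 TPM in the ePP libraries and at 89.7 and 81.1 TPM in ePP-β, a log2 fold change of 2.00 (SE 0.12, limma, adjusted p = 5.33e-05). CRELD2, a secreted ER stress protein, had 33.9 ± 4.80 TPM in ePP (mean ± SD, n = 4) and 60.01 ± 4.85 TPM in ePP-β (n = 2), and rose by 0.81 on the log2 scale. CANX, the lectin chaperone calnexin, rose by 0.27, and this call was lost after median centring (adjusted p = 0.190, limma) and without ePP-P9 replicate 1, ePP-P21 replicate 1 or either ePP-β library.

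HSPA5 encodes BiP, the main Hsp70 chaperone of the ER. Its level was 470.2, 514, 494 and 513 TPM in the ePP libraries and 390 and 340 TPM in ePP-β, so both β-like libraries lay below all progenitor libraries. The log2 fold change was -0.45 (SE 0.08, limma, adjusted p = 0.00449). HYOU1, the nucleotide exchange factor of BiP, was at 231, 230.4, 199.8 and 189 TPM in ePP and at 108 and 89.8 TPM in ePP-β. Its log2 fold change of -1.10 (SE 0.09) had an adjusted p of 0.000177 (limma). HSP90B1, the Hsp90 protein of the ER, fell from 1054 ± 166 to 785 ± 57.2 TPM, a log2 fold change of -0.41 that did not pass with all 10 libraries in one fit (adjusted p = 0.0853, limma). An exon of this gene overlaps the microRNA gene MIR3652 on the same strand, listed at 289 to 539 TPM in these libraries, and the division of reads between them is uncertain. CALR, DNAJB11, DNAJC3, SDF2L1 and MANF did not pass the test, with log2 fold changes between -0.28 and 0.40.

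The 6 enzymes of disulfide bonds all changed, 3 in each direction. ERO1B, which reoxidises the disulfide isomerases and is known from pancreatic islets, was at 1.72, 2.33, 2.76 and 2.28 TPM in ePP. In ePP-β it was at 291 and 241 TPM. Its mean was 117-fold higher, and its log2 fold change of 6.35 (SE 0.15, limma, adjusted p = 4.66e-06) was the largest of the 39. ERO1A, the other oxidase, had similar levels in all ePP libraries (43.8, 44.7, 45.7 and 48.0 TPM) and was at 58.9 and 87.1 TPM in ePP-β, a log2 fold change of 0.64 (SE 0.16, limma, adjusted p = 0.0142). This value was 0.92 without ePP-β replicate 1 and 0.36 without ePP-β replicate 2, and the call was lost without a filter (adjusted p = 0.0697, limma). The ERO1B level lay below that of ERO1A in every ePP library and above it in both ePP-β libraries, and TPM corrects for length, so the levels can be set side by side. P4HB, the classic disulfide isomerase, rose by 0.27, a call that median centring and leaving out ePP-P9 replicate 1, ePP-P9 replicate 2, ePP-P21 replicate 1, ePP-P21 replicate 2 or ePP-β replicate 1 removed.

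The isomerases PDIA4, PDIA6 and PDIA3 fell. PDIA4 was at 443, 475, 514 and 491 TPM in ePP and at 176 and 156 TPM in ePP-β, which is 2.90-fold lower in the mean. The log2 fold change was -1.53 (SE 0.08, limma, adjusted p = 3.11e-05). PDIA6 fell from 502 ± 19.8 to 340 ± 18.5 TPM (-0.56), and PDIA3, which works with the lectin chaperones, from 379.8 ± 25.2 to 299 ± 22.6 TPM (-0.34). The PDIA3 call was lost without ePP-β replicate 2 and with all 10 libraries in one fit (adjusted p = 0.0657 and 0.121, limma).

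**Figure D3:**
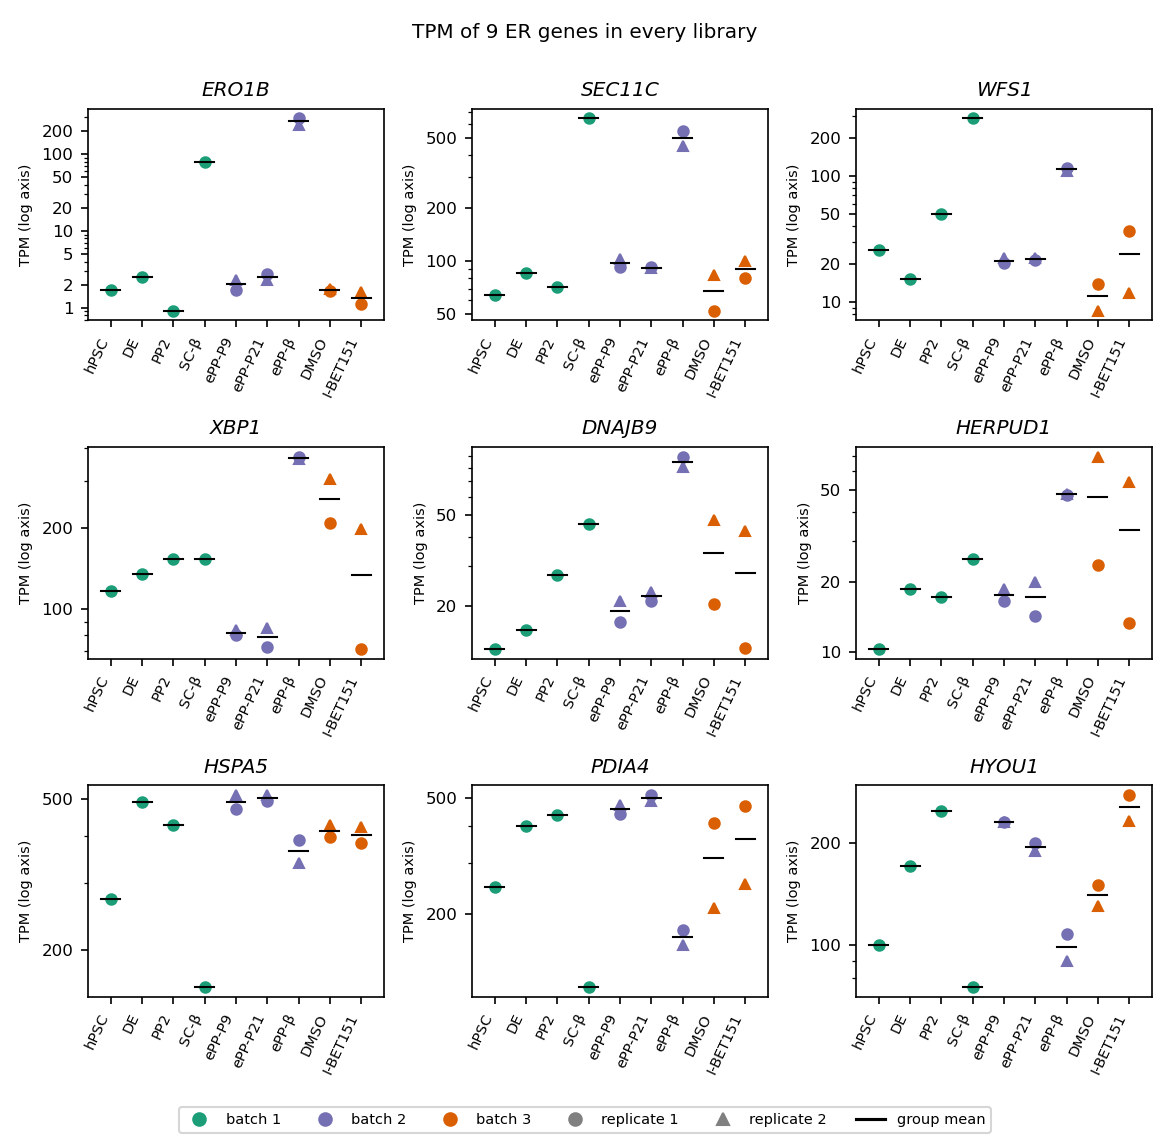
Each panel gives the TPM of one gene on a log axis in every library, with colour for the batch, circles for replicate 1, triangles for replicate 2 and a line for the group mean. ERO1B, SEC11C and WFS1 are highest in SC-β and ePP-β, XBP1 and DNAJB9 are highest in ePP-β, and HSPA5, PDIA4 and HYOU1 are lowest in SC-β.

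All 5 sensors and their transcription factors changed, 4 upward. XBP1, the target of IRE1 and itself a transcription factor of secretory cells, was at 79.9, 83.5, 72.2 and 84.9 TPM in ePP and at 370.0 and 363 TPM in ePP-β. The groups were far apart, with a log2 fold change of 2.18 (SE 0.08, limma, adjusted p = 1.43e-05). The sensor ERN1 (IRE1) was low in ePP, at 3.89, 3.12, 3.81 and 2.53 TPM, and reached 7.23 and 9.12 TPM in ePP-β, a log2 fold change of 1.09 (SE 0.20, limma, adjusted p = 0.00523). With all 10 replicated libraries in one fit neither ERN1 (adjusted p = 0.0780, limma) nor ATF6B (0.192) passed. ATF6 rose from 10.8 ± 0.940 to 21.8 ± 1.63 TPM (0.96) and EIF2AK3 (PERK) from 10.9 ± 1.88 to 21.4 ± 0.928 TPM (0.93). ATF6B, the relative of ATF6, moved the other way. It was at 50.6, 56.7, 69.2 and 66.8 TPM in ePP and 35.0 and 37.4 TPM in ePP-β, a log2 fold change of -0.72 (SE 0.08, limma, adjusted p = 0.000682). Its exons overlap those of ENSG00000284829 on the same strand, which was listed at 30.9 to 80.03 TPM in the same libraries.

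In the ATF4 branch 4 genes rose and 3, among them ATF4 itself, fell. CHAC1, which degrades glutathione, was at 0.424, 0.243, 1.30 and 1.05 TPM in ePP and at 11.4 and 10.8 TPM in ePP-β, a log2 fold change of 2.83 (SE 0.16, limma, adjusted p = 4.68e-05). TRIB3, a pseudokinase induced by ATF4 and DDIT3, was at 3.01, 3.48, 0.808 and 2.66 TPM in ePP and at 20.0 and 18.5 TPM in ePP-β (2.62, SE 0.30, limma, adjusted p = 0.000645). DDIT3, the transcription factor CHOP of prolonged stress, was at 8.94, 11.9, 18.4 and 18.8 TPM in ePP and at 30.5 and 45.6 TPM in ePP-β (1.36, SE 0.19, limma, adjusted p = 0.00168). ASNS, asparagine synthetase, rose from 19.1 ± 3.59 to 48.2 ± 1.86 TPM (1.31). The groups did not overlap in any of the 4. DDIT3 shares exon positions with ENSG00000285133 on its own strand and with MARS1 on the other, and ASNS with ENSG00000284707 on its own strand.

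ATF4 was at 258, 296, 378 and 341 TPM in ePP and at 209 and 260.3 TPM in ePP-β, so the groups overlapped. Its log2 fold change of -0.43 (SE 0.11) had an adjusted p of 0.0198 (limma), and the call was lost without ePP-P21 replicate 1 or ePP-β replicate 1 (adjusted p = 0.0549 and 0.0991, limma). SESN2, a stress-induced sestrin, fell from 35.8 ± 3.48 to 23.2 ± 2.07 TPM (-0.60), and PPP1R15A (GADD34), the phosphatase subunit that restores translation, fell from 26.0 ± 1.84 to 19.2 ± 1.81 TPM (-0.42). The PPP1R15A call was lost without ePP-β replicate 2 (adjusted p = 0.0824, limma). ATF4 is regulated at translation, which these libraries do not measure. With all 10 replicated libraries in one fit, none of the 7 genes of this branch passed the test (limma, adjusted p from 0.0560 for PPP1R15A to 0.377 for ASNS).

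Of the 7 ERAD genes tested 2 rose, 2 fell and 3 did not pass the test. HERPUD1, an ERAD component that both ATF6 and ATF4 induce, was at 16.7, 18.7, 14.4 and 20.1 TPM in ePP and 47.6 and 48.1 TPM in ePP-β, a log2 fold change of 1.41 (SE 0.15, limma, adjusted p = 0.000478), which did not pass with all 10 libraries in one fit (adjusted p = 0.0850, limma). EDEM1, a mannosidase-like protein that delivers misfolded glycoproteins, rose from 10.5 ± 1.32 to 19.1 ± 0.999 TPM (0.81). SEL1L and SYVN1, which form the core ligase complex, had log2 fold changes of -0.30 and -0.32. Both calls were lost when single libraries were left out. These were ePP-P9 replicate 1, ePP-P9 replicate 2, ePP-β replicate 1 for both, ePP-P21 replicate 2 for SEL1L, and ePP-β replicate 2 for SYVN1. SYVN1 also overlaps FAU, a gene at over 581 TPM on the same strand. DERL1, DERL2 and SELENOS, of the membrane channel, lay between -0.23 and 0.03.

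The 3 genes of protein entry and of the ER membrane rose together. SEC11C, a catalytic subunit of signal peptidase, was at 93.3, 103, 92.6 and 91.0 TPM in ePP and at 549 and 449 TPM in ePP-β, a log2 fold change of 2.37 (SE 0.10, limma, adjusted p = 1.81e-05). WFS1, the ER membrane protein mutated in Wolfram syndrome, was at 20.4, 22.1, 21.7 and 22.5 TPM in ePP and at 115 and 109.9 TPM in ePP-β, a log2 fold change of 2.33 (SE 0.08, limma, adjusted p = 1.13e-05). SEC61B, a subunit of the translocation channel, rose from 213 ± 26.3 to 359 ± 29.6 TPM (0.75, SE 0.09, limma, adjusted p = 0.000818).

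The elements printed above were set beside these directions. Of the 8 genes with ERSE, 4 rose (CANX, CRELD2, ERO1B and XBP1), 3 fell (HSPA5, HSP90B1 and PDIA6) and CALR did not pass the test. HERPUD1 rose and HYOU1 fell with the ERSE-II element that both carry, and SDF2L1 did not pass. All 3 genes with CARE rose (CHAC1, ASNS and HERPUD1), but so did TRIB3 and DDIT3, whose windows held no CARE as spelled here.

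The wider pathway was counted in 5 further lists, to be read against the 29.2% of all genes that rose and the 28.2% that fell. The genes named are those with the largest changes in each direction. Of the 21 other chaperones, lectins and disulfide enzymes 5 rose and 9 fell. FKBP2 and PRDX4 rose by 1.01 each, and PPIB, a prolyl isomerase, by 0.84. QSOX1, PRKCSH and GANAB fell, with log2 fold changes of -1.56, -1.49 and -1.03. PRKCSH and GANAB encode the subunits of glucosidase II, which trims glycans for the lectin chaperones. Of the 16 other ERAD genes 5 rose and 6 fell, with VCP, the ATPase that extracts substrates, at -0.84 and UBXN4 at 0.73. Of the 23 genes of translocation and glycosylation 12 rose and 4 fell, led by SSR4 (1.38) and SRPRB (1.11), while the oligosaccharyltransferase subunit RPN2 was at -0.44. Of 25 other ATF4 targets 23 were tested, of which 13 rose and 4 fell. VLDLR (6.74), STC2 (3.43) and GDF15 (1.61) rose most, whereas the serine synthesis genes PHGDH (-1.17) and PSAT1 (-0.83) fell along with MTHFD2 (-0.46). Of these 25 targets 20 reached 1 TPM in each ePP library and 23 in each ePP-β library. VLDLR and STC2 entered the fit only through the ePP-β libraries, so the filter itself favoured a rise. The PSAT1 and MTHFD2 calls were lost with all 10 replicated libraries in one fit (limma, adjusted p = 0.322 and 0.671). Of 11 other sensors and regulators 10 were tested, 2 of which rose (EIF2AK2, 1.46, and MBTPS2, 0.96) and 3 fell, led by MBTPS1 (-0.70), whose call was lost without a filter and with all 10 libraries in one fit (limma, adjusted p up to 0.0877).

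Other quantities moved with this comparison, and their part in it was not tested. The 12 genes of secreted cargo (hormones, granins and TTR) took 6.26% and 6.90% of the listed TPM in ePP-β and at most 0.00374% in ePP. The summed TPM of 7 liver-type markers was 17260 and 19920 in ePP-β against 277 to 316 in ePP, and all 7 rose. TTR, which is also counted in the secreted cargo, made up 13020 and 15560 TPM of the ePP-β sums. ALB was under 1 TPM in every ePP library and entered the fit only through ePP-β. All 10 islet endocrine markers rose, but only CHGA among them reached 1 TPM in at least 2 ePP libraries. The others entered the fit only through ePP-β, so the filter itself favoured a rise. Of the gastric and intestinal markers 4 of 5 rose, and 5 of 6 pancreatic progenitor markers fell. Among all genes 29.2% rose and 28.2% fell. The summed mesenchymal markers were 51.8 and 40.04 TPM in ePP-β and 45.3 to 70.9 TPM in ePP. All 5 proliferation markers fell, by 1.35 to 1.53 log2 units.

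The direct route gives the same step without expansion, from PP2 to SC-β, with 1 library each and hence no test. ERO1B was at 0.916 TPM in PP2 and 78.0 TPM in SC-β, a difference of 5.37 in log2(TPM + 1). SEC11C differed by 3.15 (71.7 and 645 TPM), WFS1 by 2.50 (49.9 and 286 TPM), CHAC1 by 2.31, ASNS by 1.75, TRIB3 by 1.69 and ERN1 by 1.02. Of the 11 chaperones 9 were lower in SC-β and 2 higher (DNAJB9 and SDF2L1), and of the 6 enzymes of disulfide bonds 5 were lower, with medians of -0.64 and -0.66. After median centring 6 of 11 and 3 of 6 were lower, with medians of -0.27 and -0.29. The genes more than 1 log2 unit lower were PDIA4 (-1.96), PPP1R15A (-1.90), HYOU1 (-1.71), HSPA5 (-1.42, 428 and 159.8 TPM), CALR (-1.12), SEL1L (-1.05) and HSP90B1 (-1.01). Beyond 1 log2 unit, 7 of 39 genes were higher and 7 lower, against 12.7% and 22.1% of all genes (34.8% either way). All 18894 genes had a median difference of -0.37 and the 39 genes one of -0.09. After median centring these were 0.01 and 0.29, and the lower genes numbered 4, with no share of all genes given beside that count. XBP1 was at 154 TPM in both libraries. Secreted cargo took 15.0% of the listed TPM in SC-β and 0.0837% in PP2.

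Of the 39 genes, 25 (64.1%) had the same sign in both routes, against 68.4% of all 16764 genes with a value in both. The batches of the 2 routes do not share a library, and batch and route cannot be told apart.

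**Figure D4:**
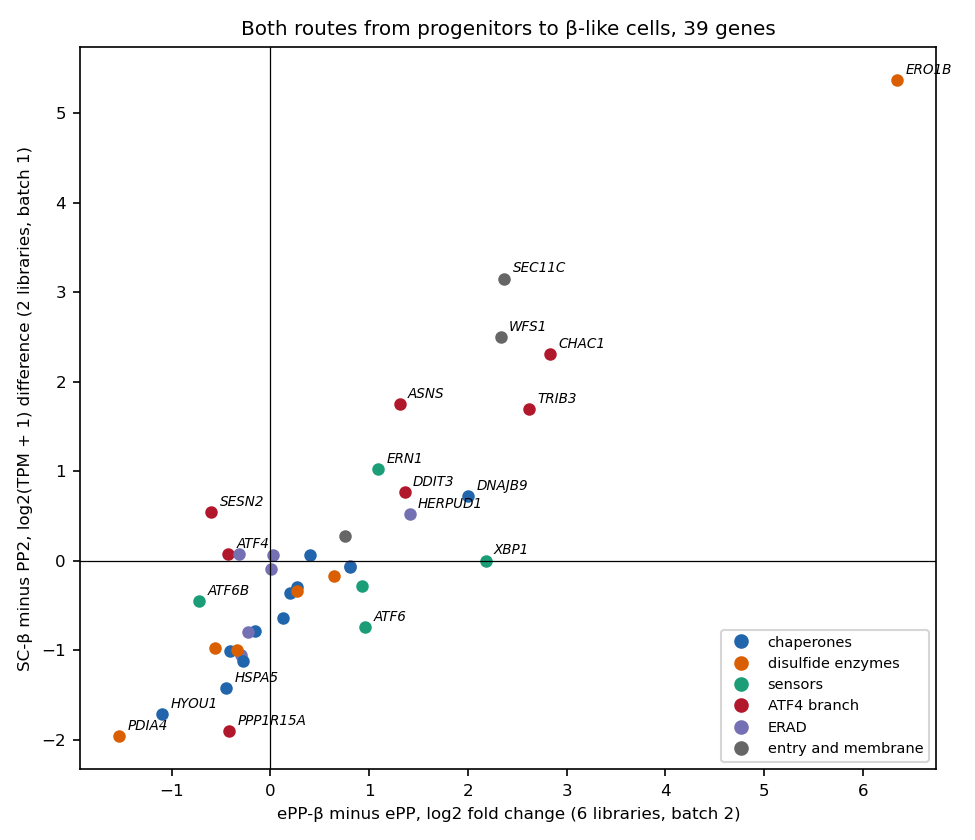
Each point is one of the 39 genes, coloured by role, with the log2 fold change of ePP-β over ePP on the x axis and the log2(TPM + 1) difference of SC-β from PP2 on the y axis. ERO1B lies at 6.35 and 5.37, SEC11C, WFS1, CHAC1, TRIB3 and ASNS lie at the upper right, PDIA4 and HYOU1 at the lower left, and XBP1 at 2.18 and 0.00.

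The β-like cells of both routes were set side by side. In both ePP-β libraries 13 of the 39 genes were more than 1 log2 unit above the SC-β library, against 16.6% of all genes, and 3 were as far below it, against 12.3%. The 13 included HSPA5, HSP90B1, CANX, ERO1A, ERO1B, XBP1, ATF6 and EIF2AK3, and the 3 were ATF4, CHAC1 and WFS1. After median centring the counts were 5 higher and 5 lower, so the higher count depends on the scaling. The shares of all genes after centring are not given, so the centred counts cannot be set against a background. The summed TPM of the 11 chaperones was 3261 and 3000 in ePP-β and 1787 in SC-β, the lowest of all libraries. The mesenchymal markers, at 2678 TPM in SC-β, differed too, and their part was not tested.

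Along the direct route the earlier stages moved other members. From hPSC to DE all 11 chaperones were higher, with a median difference of 0.77 against -0.04 for all genes. Their summed TPM went from 2402 to 4463, the highest of all libraries. MANF, a secreted survival factor released under ER stress, was at 206 TPM in hPSC and 484 TPM in DE (1.23), and HSP90B1 at 454 and 1054 TPM (1.21). CHAC1 (-2.27) and ASNS (-2.19) were lower in DE. Of the 40 genes, 6 were over 1 log2 unit higher and 2 lower, against 10.8% and 16.1% of all genes (26.9% either way).

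From DE to PP2 the sensors ATF6 (4.75 and 16.8 TPM, 1.63) and ATF6B (31.2 and 96.6 TPM, 1.60) were higher, as were WFS1 (1.65) and SESN2 (1.07). ASNS (-1.56), SELENOS (-1.44) and DERL3 (-1.13) were lower. These 4 higher and 3 lower genes compare with 27.2% and 9.83% of all genes (37.0% either way). The chaperones had a median difference of -0.28 while that of all genes was 0.38. After median centring all genes had -0.10 and 8 of the 40 genes were over 1 log2 unit lower. The share of all genes as far lower after centring is not given.

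The ePPs were also set beside PP2, in another batch. No gene was more than 1 log2 unit above PP2 in all 4 ePP libraries, against 5.63% of all genes, and 4 were as far below, against 15.1%. These were PPP1R15A (97.2 TPM in PP2 and 24.6 to 28.6 TPM in ePP), CHAC1 (6.19 and 0.243 to 1.30 TPM), TRIB3 (9.97 and 0.808 to 3.48 TPM) and WFS1 (49.9 and 20.4 to 22.5 TPM). After median centring 4 genes were above and 2 below, with no share of all genes given beside them. Other quantities differed in the same comparison, and their part was not tested. The summed TPM of the liver-type markers was 4853 in PP2 and 277 to 316 in ePP, that of the mesenchymal markers 1490 and 45.3 to 70.9, and that of 3 endothelial markers 61.4 and at most 0.0761. Ribosomal protein genes took 10.9% of the listed TPM in PP2 and 19.8% to 23.3% in ePP.

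The DMSO and I-BET151 libraries ask whether these genes respond when progenitors are kept with the BET inhibitor. None of the 40 genes passed the test in either direction (limma, adjusted p under 0.05), against 0.00599% of all 16687 genes that were higher and 0.204% that were lower (0.210% either way), each beyond 1 log2 unit. At an unadjusted p under 0.05 there was 1 of 40 (2.50%), against 15.2% of all genes. The median log2 fold change was -0.12 for the 40 genes and 0.16 for all genes. Outside the range of the other group lay 3 genes that were higher (HYOU1, CALR and DNAJB11) and 7 that were lower (XBP1, DERL3, ERO1A, EDEM1, SELENOS, EIF2AK3 and ERO1B), against 28.7% and 18.0% of all genes. With all 10 replicated libraries in one fit, which share one estimate of the spread, HYOU1 passed as higher and DERL3 and EDEM1 as lower (limma, adjusted p = 0.0165, 0.0458 and 0.0480). In that fit 901 of all 19179 genes were higher and 1322 lower. In both fits DERL3 reached 1 TPM only in the DMSO libraries (2.04 and 1.24 TPM). It was therefore tested only through the group where it was higher, and its levels were near the filter. The calls also changed with a replicate block, which is given below with the dependence on processing.

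HYOU1 was the gene at the unadjusted threshold. The DMSO libraries had 150.4 and 130.2 TPM, the I-BET151 libraries 277 and 232 TPM, a log2 fold change of 0.85 (SE 0.31, limma, adjusted p = 0.299). For XBP1 the DMSO libraries had 209 and 305 TPM and those with the inhibitor 71.1 and 198 TPM, so every I-BET151 library lay below both DMSO libraries. Its log2 fold change was -1.08 (SE 0.57, limma, adjusted p = 0.443), with a 95% interval from -2.54 to 0.38. ERO1A had 58.5 and 57.4 TPM under the solvent, with 32.4 and 38.2 TPM under I-BET151 (-0.70, SE 0.30, limma, adjusted p = 0.362). HSPA5 had 398 and 429 TPM in DMSO, 384 and 423 TPM in I-BET151, and an interval of the log2 fold change from -0.81 to 0.74. The narrowest of the 40 intervals, that of ERO1B, ran from -0.94 to 0.54.

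The libraries of each group differed from each other. Both libraries numbered 2 held far more RNA of the ATF4 branch than those numbered 1. ASNS was at 34.8 and 289 TPM in DMSO replicates 1 and 2 and at 25.0 and 351 TPM in those of I-BET151. CHAC1 had 17.2 and 152 TPM in the DMSO pair, with 5.69 and 114 TPM in the I-BET151 pair. TRIB3 had 26.6 and 155 TPM, then 5.64 and 106 TPM, in the same order. In each pair the library numbered 2 was the higher. DDIT3 had 31.9 and 125 TPM in DMSO, 16.6 and 130.1 TPM in I-BET151. The level of ATF4 itself differed less, at 697 and 844 TPM in DMSO and 513 and 796 TPM in I-BET151. The libraries numbered 2 had the highest CHAC1, TRIB3, DDIT3 and ASNS of the series.

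In both groups 6 of the 40 genes were more than 1 log2 unit higher in the library numbered 2, against 2.00% of all genes. They were those 4 of the 7 ATF4 branch genes, DNAJB9 (20.4 and 47.8 TPM in DMSO) and HERPUD1 (23.8 and 69.2 TPM in DMSO). ATF6B was as far lower in both, against 5.70% of all genes. The share of ribosomal protein genes was 20.3% and 27.9% in DMSO replicates 1 and 2 and 16.8% and 27.8% in those of I-BET151, and its part in these differences was not tested. Without I-BET151 replicate 2, the log2 fold changes of TRIB3 and CHAC1 were -3.30 and -2.98. This fit sets 1 I-BET151 library, the one with low levels of both genes, against 2 of DMSO and takes its spread as that of the DMSO libraries.

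**Figure D5:**
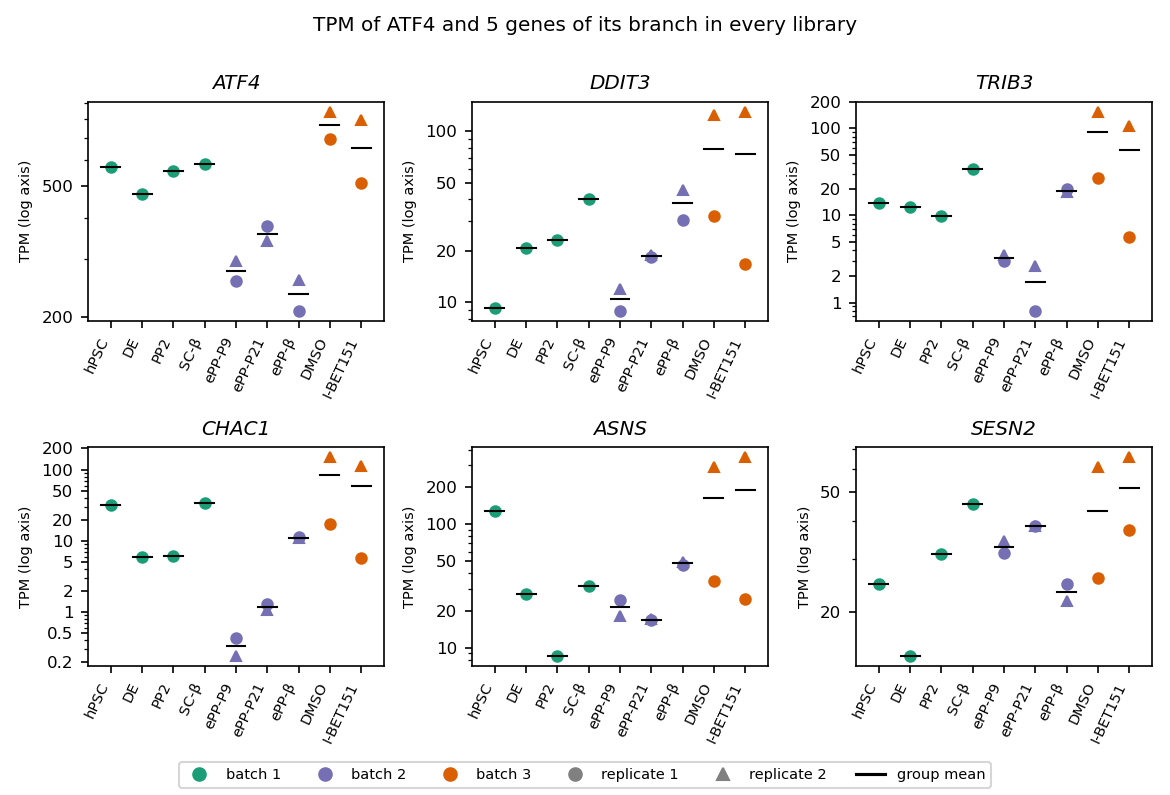
Each panel gives the TPM of one gene on a log axis in every library, with colour for the batch, circles for replicate 1, triangles for replicate 2 and a line for the group mean. For DDIT3, TRIB3, CHAC1 and ASNS the triangles of DMSO and I-BET151 lie far above the circles and above all other libraries, and ATF4 shows a smaller gap.

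Other cell types also differed between DMSO and I-BET151. All 7 liver-type and all 5 gastric and intestinal markers had negative log2 fold changes, and their summed TPM was 11790 and 10340 (liver-type) and 1507 and 1394 (gastric and intestinal) in DMSO, against 1519 and 3445 and 266 and 336 in I-BET151. Secreted cargo took 0.115% and 0.127% of the listed TPM in DMSO and 0.00835% and 0.00709% in I-BET151. TTR, counted both as cargo and as liver-type, was at 1049 and 1220 TPM in DMSO and 55.6 and 60.7 TPM in I-BET151. The part of these cells in the XBP1, ERO1A and HYOU1 values was not tested. The 6 pancreatic progenitor markers had summed TPM of 420 and 347 in DMSO, 1172 and 711 in I-BET151. In the 5 further lists of the pathway no gene passed the test (limma, adjusted p under 0.05), and 3 genes did at an unadjusted p under 0.05. UFD1, an ERAD cofactor of VCP, had a log2 fold change of 1.45 (adjusted p = 0.120, limma), and GDF15 one of -2.02 (adjusted p = 0.107, limma). Both names were chosen after their values were seen.

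Passage 21 was compared with passage 9 to ask whether long expansion alters these genes. None of the 39 genes tested passed (limma, adjusted p under 0.05), against 1.82% of all 15822 genes that were higher and 0.133% that were lower (1.95% either way), or 1.07% and 0.0569% beyond 1 log2 unit, and 10 did at an unadjusted p under 0.05 (25.6%, against 23.0%). The median log2 fold change was 0.11, against 0.13 for all genes. In 18 genes both ePP-P21 libraries lay above both ePP-P9 libraries and in 7 below them, against 41.3% and 13.1% of all genes. Median centring moved the median of all genes to -0.07 and that of the 39 genes to -0.10, so the direction of the small differences depends on the scaling.

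DDIT3 came nearest to the threshold, at 8.94 and 11.9 TPM in ePP-P9 and 18.4 and 18.8 TPM in ePP-P21 (0.79, SE 0.17, limma, adjusted p = 0.0826). Without ePP-P9 replicate 2, which leaves 1 library in that group, its log2 fold change was 0.98. CHAC1 was at 0.424 and 0.243 TPM and at 1.30 and 1.05 TPM, whereas TRIB3, another ATF4 target, was at 3.01 and 3.48 TPM and at 0.808 and 2.66 TPM. HSP90B1 had 860.1 and 974 TPM at passage 9, with 1167 and 1216 TPM at passage 21 (0.38, SE 0.09, limma, adjusted p = 0.0867). HSPA5 (0.03), XBP1 (-0.06), ERO1A (0.08) and ERO1B (0.22) had intervals that included 0, from -0.16 to 0.23 for HSPA5 and from -0.36 to 0.81 for ERO1B. In the wider lists UGGT2 (0.81), which senses the folding of glycoproteins, and UBXN4 (0.73) rose (limma, adjusted p = 0.0379 for both). These calls were lost without a filter, after either scaling, without the intensity trend, with all 10 replicated libraries in one fit, and without ePP-P9 replicate 1, ePP-P21 replicate 1 or ePP-P21 replicate 2 (limma, adjusted p up to 0.506 for UGGT2 and 0.530 for UBXN4).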

How the data were processed

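Total RNA of each library had been prepared with the NEBNext Ultra kit and sequenced in paired ends. Per the labels and the methods of the study, the authors aligned reads to GRCh38 with HISAT2 2.1.0, assembled transcripts with StringTie and deposited TPM per gene identifier. Which annotation was used, and whether counting used strand, is not given in the sources used here. TPM keeps no read depth, so no counting interval is given, and precision rests on the spread between libraries. All 37 mitochondrial genes are listed at 0 in every library, so a 0 is reported as listed only. The authors tested with DESeq2, which cannot take TPM and was not used here.

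Identifiers were matched to GENCODE release 44 (60370 of 60624), and promoter sequences came from the RefSeq windows of GRCh38.p14. Genes with at least 1 TPM in 2 libraries of a fit were tested on log2(TPM + 1), a scale that understates the change of low genes, with limma 3.58.1 in R 4.3.3 (lmFit, and eBayes with an intensity trend, two-sided). Fits held only the groups compared, with the ePP level as the mean of both passage means. A gene rose or fell at a Benjamini-Hochberg adjusted p under 0.05 over all genes tested. The study also required a log2 fold change beyond 1, and those counts stand beside. Differences between single libraries, or between batches, have no test. ± is the SD, and the code was tested on simulated data. Exons of 22 of the 40 genes overlap another gene, so reads of overlapping genes are uncertain.

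The 40 genes and all lists were chosen with earlier results of these data known. Up to 3 genes per role and direction with the largest fold changes were given in full, and HSPA5, XBP1, ATF4, DDIT3, ERO1A and ERO1B always. Tried as alternatives were a pseudocount of 0.1 or 0.01, dropping the filter or raising it to 5 TPM, median centring, quantile normalization, a replicate block, all 10 replicated libraries in one fit, no intensity trend, the threshold of the study and leaving out each library.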

Additional observations from a re-analysis of the deposited data

Results flagged for a closer look

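In 11 genes the 2 ePP-β libraries together moved one way from ePP while SC-β lay the other way from PP2. The difference between the routes was not tested, since SC-β and PP2 have 1 library each, and batch and route cannot be told apart. The log2 differences, ePP-β from ePP first and SC-β from PP2 second, were widest for XBP1 (2.18 and 0.00, a difference just below 0), ATF6 (0.96 and -0.74), EIF2AK3 (0.93 and -0.28) and SESN2 (-0.60 and 0.54). The ERO1A values were 0.64 and -0.17. Small second values were seen in CRELD2 (0.81 and -0.07), EDEM1 (0.81 and -0.06) and SYVN1 (-0.32 and 0.07). The first values nearest 0 were those of CANX (0.27 and -0.29), P4HB (0.27 and -0.34) and MANF (0.20 and -0.36). Median centring moved the median of SC-β minus PP2 from -0.37 to 0.01 for all genes and from -0.09 to 0.29 for the members. The sign of second values from -0.36 to 0.00 therefore depends on the scaling. The same sign in both routes was seen in 64.1% of the members and in 68.4% of all genes.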

How the results depend on the processing

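For ePP-β over ePP, 389 values of called genes under the alternatives kept direction and call, and 46 kept the direction only. With all 10 replicated libraries in one fit 11 genes rose and 4 fell, against 4069 and 2935 of all 19179 genes. With the threshold of the study 11 rose and 2 fell, against 3237 and 1783 of all 18076 genes. For I-BET151 over DMSO the fit of all 10 libraries gave 1 higher gene (HYOU1) and 2 lower ones (DERL3 and EDEM1). Among those libraries DERL3 reached 1 TPM only in DMSO. Of all 19179 genes in that fit, 901 were higher and 1322 lower. In the same comparison the replicate block gave 1 higher gene (HYOU1) and 2 lower ones (XBP1 and ERO1A). Of all 16687 genes, 1477 were higher and 1712 lower with the block, against 1 and 34 in the main fit of that comparison. Leaving out a library of that comparison, or of ePP-P21 over ePP-P9, leaves 1 library in a group, and calls from those fits are not counted here. The replicate numbers are shared between groups by the labels, but only 2 libraries carry them in each group and no label ties them to a shared culture. The replicate 2 minus 1 differences of DMSO and I-BET151 had r = 0.675 over 16687 genes (genes are not replicates), and r lay between -0.00933 and 0.0424 for the ePP pairs. The replicate block gave 20 rising and 12 falling genes for ePP-β over ePP and 0 for ePP-P21 over ePP-P9. Among all genes 5300 rose and 5198 fell of 18076 in the former, and 89 rose and 7 fell of 15822 in the latter.

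Directions that turned were those of genes that did not pass the test. In I-BET151 over DMSO, leaving out single libraries gave from -0.10 to 0.03 for HSPA5, from -0.58 to 0.05 for ATF4 and from -1.87 to 1.03 for DDIT3, with positive values without DMSO replicate 2 (HSPA5 and DDIT3) or I-BET151 replicate 1 (all 3). In ePP-P21 over ePP-P9, median centring gave -0.17 for HSPA5 and -0.13 for ERO1A, quantile normalization -0.04 for both ERO1A and ERO1B, and leaving out single libraries from -0.03 (without ePP-P9 replicate 1) to 0.10 for HSPA5 and from -0.18 to 0.05 (without ePP-P21 replicate 1) for XBP1. Between single libraries the number of genes beyond 1 log2 unit moved with the scaling. The shares of all genes under these settings are not given, so the counts show only this dependence. Lower in PP2 than in DE were 5 after quantile normalization and 8 after median centring, and lower in SC-β than in PP2 were 4 after median centring. For ePP beside PP2, 4 were higher after either scaling, and 2 were lower after either scaling or with the 5 TPM filter. For ePP-β beside SC-β, median centring gave 5 higher and 5 lower. The cause was not tested. Having 2 libraries in most groups, 1 in batch 1, and an unknown depth limit the precision of all values.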
